A study of Mus musculus with 8 samples.

Results

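The regions described here are stretches of mouse chromatin that were called as peaks with a PRDM16 antibody in both wild-type (WT) cortex libraries. They were called in neither conditional knockout (cKO) library and lie in gene deserts. A region was the union of peaks that overlapped by at least 1 bp between the WT lists and that overlapped no peak of either cKO list. It was kept when its summit, the point of highest read pileup averaged over the WT replicates, was more than 100 kb away from the nearest protein-coding gene. This left 1901 regions of 9232 WT-only regions at any distance from a gene, of 10090 regions found in both WT lists, and of 33210 regions found in at least 1 of the 4 lists. The regions were thus selected on the peak calls of all 4 lists and on position, so their presence in WT and absence in cKO is a description and carries no test.

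PRDM16 is a zinc-finger protein of the PR-domain family, which is made in radial glia, the neural stem cells that line the ventricle of the embryonic cortex and give rise to its neurons. Gene deserts are long stretches between protein-coding genes, and in vertebrates many of them hold distant enhancers, elements that act on a developmental gene far along the chromosome. An enhancer need not act on the nearest gene, so the genes that bound a desert are named below as positions and not as targets. The assay was ChIP-seq, in which crosslinked chromatin is precipitated with an antibody, here against PRDM16, and the DNA recovered is sequenced.

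Whole cortex of E15.5 embryos was used, with 2 PRDM16 ChIP libraries and 2 input libraries of each genotype. WT embryos were Prdm16 flox/flox without Cre, and cKO embryos were Emx1Ires-Cre; Prdm16flox/flox, so the floxed alleles were shared by both groups. Emx1-driven Cre acts in the dorsal telencephalic lineage, and a whole-cortex lysate also holds cells of other lineages. Peak lists hold no RNA measurement, so neither the loss of Prdm16 nor the tissue could be checked against marker genes here, and fewer cells with bound PRDM16 and less binding per cell cannot be told apart. No label says whether replicates came from separate embryos, so the spread between them may be technical.

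Among the 1901 regions, 20 had their summit inside a promoter window of a non-coding gene, counted from 250 bases before to 50 bases after the annotated start in RefSeq (GRCm38.p6, the mm10 assembly). These 20 summits touched the windows of 21 genes, and all 21 were long non-coding RNA (lncRNA) genes. The windows of the 6 genes at the most strongly enriched of these regions are printed because they show the sequence under the summit of a region called in the WT lists alone. All run 5′ to 3′ on the gene's own strand, and the capitals mark the bases within 10 bases of the mean WT summit. The windows are Gm20083 at chr7:73185141-73185440 on the plus strand, Gm29260 at chr1:41742781-41743080 on the plus strand, 4931403M11Rik at chr14:24617333-24617632 on the plus strand, 4932435O22Rik at chr11:114448811-114449110 on the minus strand, Gm36794 at chr5:111944408-111944707 on the minus strand and Gm42156 at chr5:111944184-111944483 on the plus strand.
Gm20083: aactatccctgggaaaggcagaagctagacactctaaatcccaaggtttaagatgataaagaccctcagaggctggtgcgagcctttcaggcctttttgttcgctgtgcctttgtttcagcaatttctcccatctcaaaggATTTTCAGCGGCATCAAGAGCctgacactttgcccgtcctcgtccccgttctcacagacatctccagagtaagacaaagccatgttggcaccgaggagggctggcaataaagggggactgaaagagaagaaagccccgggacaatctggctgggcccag
Gm29260: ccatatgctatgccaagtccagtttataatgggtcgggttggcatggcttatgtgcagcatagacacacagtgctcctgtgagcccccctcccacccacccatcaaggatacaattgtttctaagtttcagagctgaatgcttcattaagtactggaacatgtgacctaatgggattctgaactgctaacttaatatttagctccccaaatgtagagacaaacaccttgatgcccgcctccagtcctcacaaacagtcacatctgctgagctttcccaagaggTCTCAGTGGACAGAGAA
4931403M11Rik: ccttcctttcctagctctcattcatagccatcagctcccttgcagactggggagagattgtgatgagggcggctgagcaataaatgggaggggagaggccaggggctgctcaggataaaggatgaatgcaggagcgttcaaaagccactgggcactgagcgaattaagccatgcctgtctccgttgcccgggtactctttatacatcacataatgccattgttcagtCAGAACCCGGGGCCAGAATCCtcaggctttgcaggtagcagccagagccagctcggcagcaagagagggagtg
4932435O22Rik: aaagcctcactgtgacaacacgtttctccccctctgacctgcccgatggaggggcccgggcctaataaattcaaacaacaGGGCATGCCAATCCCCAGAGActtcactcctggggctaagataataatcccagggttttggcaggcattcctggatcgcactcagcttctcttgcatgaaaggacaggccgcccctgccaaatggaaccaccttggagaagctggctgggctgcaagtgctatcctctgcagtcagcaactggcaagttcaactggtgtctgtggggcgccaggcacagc
Gm36794: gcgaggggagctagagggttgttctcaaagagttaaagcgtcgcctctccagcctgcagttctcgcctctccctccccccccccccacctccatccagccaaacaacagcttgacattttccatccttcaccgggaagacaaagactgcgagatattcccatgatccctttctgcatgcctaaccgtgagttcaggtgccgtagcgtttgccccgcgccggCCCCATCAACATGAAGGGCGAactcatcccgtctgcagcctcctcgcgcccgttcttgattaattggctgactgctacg
Gm42156: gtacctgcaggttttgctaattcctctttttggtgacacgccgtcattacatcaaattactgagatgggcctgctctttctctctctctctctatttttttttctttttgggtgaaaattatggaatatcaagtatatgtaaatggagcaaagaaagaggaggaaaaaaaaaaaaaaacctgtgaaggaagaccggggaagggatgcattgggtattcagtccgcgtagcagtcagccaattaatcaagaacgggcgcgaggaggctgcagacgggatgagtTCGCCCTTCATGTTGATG
Gm36794 and Gm42156 start in opposite directions and share 1 region and 1 summit, so the capitals of one window are the reverse complement of those of the other where the windows overlap.

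The region at the Gm20083 window, between Mctp2 and Rgma (repulsive guidance molecule A, a membrane protein that repels axons), had a fold enrichment of 34.2 in WT replicate 1 and 51.5 in WT replicate 2. Fold enrichment is the authors' value per peak, the summit pileup plus 1 divided by the local background plus 1. The Gm29260 region, in the desert before Pou3f3, had folds of 22.4 and 42.7 in WT replicates 1 and 2. At 4931403M11Rik, between Rps24 and Zmiz1, the folds were 15.54 and 28.1, and at 4932435O22Rik, between Sdk2 and Rpl38, they were 14.1 and 25.6. The pair of genes Gm36794 and Gm42156 lies between Mn1 and Cryba4, and their shared region had folds of 10.6 and 21.9. All 5 of these regions were higher in replicate 2 than in replicate 1.

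Short sequence motifs were counted on both strands of the 21 windows, beside all 32851 promoter windows of the same length in the RefSeq table. Those 32851 windows were not limited to lncRNA genes or to deserts, so the shares compare unlike sets. Matches in the bases that the Gm36794 and Gm42156 windows share were counted in each. ACAAT, the core bound by SOX factors, was in 12 of the 21 windows (57.1%) and in 31.0% of all windows. The longer ACAATG, which contains ACAAT, was in 6 (28.6%) against 12.6%. TAATTA, a core bound by many homeodomain factors, was in 4 (19.0%) against 5.29%. TTGGC, one arm of the nuclear factor I site, was in 13 (61.9%) against 46.7%, while the full palindromic nuclear factor I site, TTGGC and its reverse complement with 5 bases between them, was in 0 against 0.0365%. CANNTG, the E-box bound by basic helix-loop-helix factors, was in 15 (71.4%) against 72.3%. Of the E-boxes that CANNTG includes, CAGCTG was in 4 (19.0%) against 16.3%, CAGATG in 5 (23.8%) against 17.2% and CACGTG in 0 against 7.15%. TGANTCA, the AP-1 site, was in 0 of 21 windows and in 7.81% of all windows. The remaining motifs were GATTA in 7 (33.3%) against 22.0%, CCAAT in 7 (33.3%) against 37.4%, TGACCT in 6 (28.6%) against 16.3% and ATGCAAAT in 1 (4.76%) against 1.74%. The median GC content was 47.0% in the 21 windows and 52.7% in all windows, and the part of base composition in these shares was not tested.

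Small RNA genes in deserts were looked at in the same way. Of 104 RefSeq miRNA hairpins that lie over 100 kb from a protein-coding gene, 10 had a region within 10 kb. The share of all desert sequence that lies within 10 kb of a region was not computed. The 10 are therefore positions and not an excess. Mature sequences of 4 of them are printed 5′ to 3′ from RefSeq with the seed, bases 2 to 8, in capitals, because a region covers the first hairpin and the others lie close to one in deserts that are among the most occupied.
mmu-miR-802-5p: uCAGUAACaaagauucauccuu
mmu-miR-125b-5p: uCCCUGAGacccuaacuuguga
mmu-miR-99a-5p: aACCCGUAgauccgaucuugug
mmu-let-7c-5p: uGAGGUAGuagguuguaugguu
No 2 of these 4 seeds are the same. The region that covers Mir802, between Runx1 and Setd4 at chr16:93369254-93369973, had folds of 6.54 and 15.9 in WT replicates 1 and 2. Mir125b-1, whose product is a well-known regulator of neural differentiation, lies 892 bp from a region with folds of 5.62 and 11.8, and 3 regions lie within 10 kb of it. Mir99a and Mirlet7c-1 are neighbours in the desert between Usp25 and Cxadr, and they lie 4028 bp and 4749 bp from a region with folds of 8.76 and 7.47. Mir137, a brain miRNA, lies 9640 bp from a region with folds of 8.22 and 4.75.

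The 4 lists differed in length and in depth. After merging, WT replicate 1 held 13852 regions and WT replicate 2 held 26652, while the cKO lists held 4553 and 3088. Read totals are not in the lists, but the smallest local background, which follows the number of reads, was 0.777, 1.78, 2.95 and 2.52 reads in the same order. Background was thus higher in both cKO libraries than in both WT libraries, and folds are therefore not compared between genotypes. The WT lists share a library identifier that the cKO lists do not carry, so genotype and any batch it marks cannot be told apart. Of regions in both WT lists, 91.5% overlapped no region of either cKO list.

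Desert regions made up a larger share of each WT list than of each cKO list. WT replicate 1 had 2592 regions over 100 kb from a protein-coding gene and WT replicate 2 had 4766, while cKO replicates 1 and 2 had 247 and 189. As shares of each list these were 18.7% (Wilson 95% interval 18.1 to 19.4), 17.9% (17.4 to 18.3), 5.42% (4.80 to 6.12) and 6.12% (5.33 to 7.02). Neither the numbers nor the shares of the genotypes overlapped. WT libraries averaged 3679 ± 1537 desert regions and cKO libraries 218 ± 41.0 (mean ± SD over 2 libraries), a ratio of 16.9, with p = 0.333 in an exact two-sided permutation test. The share averaged 18.3% ± 0.587 over the WT libraries and 5.77% ± 0.492 over the cKO libraries (mean ± SD), a difference of 12.5 percentage points with the same exact permutation p of 0.333. With 2 libraries against 2, 0.333 is the smallest p the design allows and the one that any full separation gives. These are also the lists that the regions were selected on, so the tests support nothing about them. With lists cut to equal length the ratio was 3.78 and the difference in share was 17.3 percentage points. With deserts measured from any RefSeq gene, coding or not, the difference in share was 1.88 percentage points. Desert shares were then small in every list, 2.68% and 2.72% in WT and 0.703% and 0.939% in cKO. Gene ends here are both annotated ends of a protein-coding gene, its start included. Summits within 1 kb of a gene end made up 10.2% and 10.05% of the WT lists and 40.04% and 40.3% of the cKO lists. Intervals cover counting error only.

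**Figure D1:**
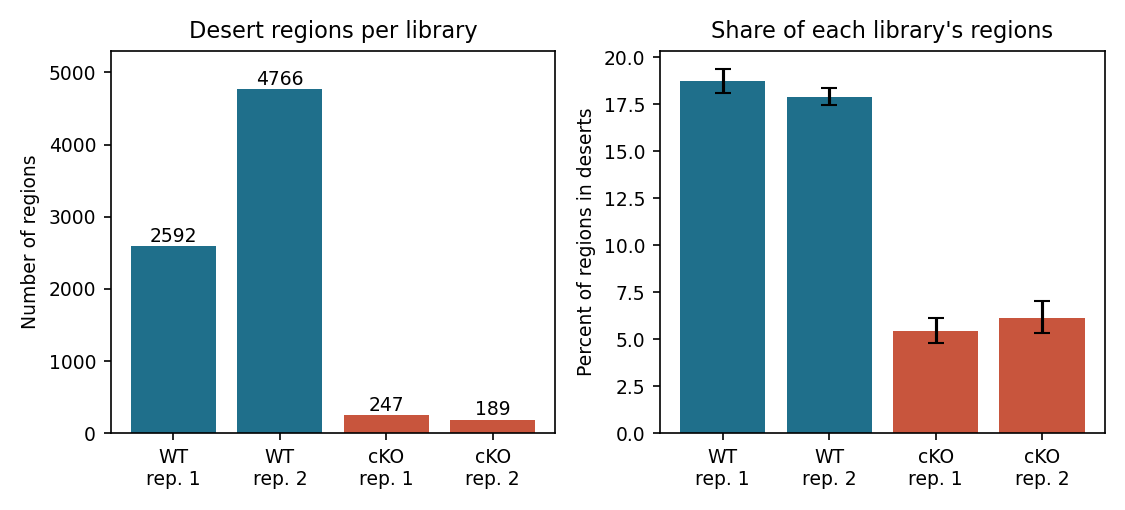
Number of regions over 100 kb from a protein-coding gene (left) and their percent of all regions (right) in each of the 4 PRDM16 ChIP libraries, with Wilson 95% intervals on the right. Both WT libraries, at 18.7% and 17.9%, lie above both cKO libraries, at 5.42% and 6.12%.

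Of 2008 desert regions found in both WT lists, 94.7% were in neither cKO list, and these are the 1901 regions. At the median desert background, the smallest fold that could be called was 3.18 and 3.10 in cKO replicates 1 and 2. Divided by 2, the lower WT fold was over 3.18 in 1001 regions (52.7%). Median background at the 1901 regions was 1.02 and 2.32 reads in WT, against 3.72 and 3.51 at the desert regions of the cKO lists. The same binding can thus give unlike folds, and the 52.7% does not count regions callable in cKO. A call needs a fold over the cKO limit, so no call in cKO is not the same as no binding. Without WT replicate 1, whose list is the shorter of the WT lists, a region needed a call in WT replicate 2 alone. That looser rule, with no overlap of a cKO peak, gave 4610 desert regions. The 107 that a cKO list kept were 5.33% (4.43 to 6.40). The kept share was 6.45% in gene bodies, 9.44% between genes at up to 100 kb and 27.0% at gene ends. These shares come from the contrast that chose the regions and are given without a test. Desert regions were 20.6% (19.8 to 21.4) of WT-only regions, 12.5% (10.4 to 14.9) of the 858 regions that were in both WT lists and kept in cKO, and 4.87% (3.58 to 6.59) of the 801 regions that only the cKO lists shared.

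Enrichment of the 1901 regions spanned a wide range in both WT libraries. In WT replicate 1 the fold ran from 1.95 to 63.4 with a median of 7.32, and the middle 50% lay between 5.66 and 10.4. In WT replicate 2 it ran from 1.35 to 101 with a median of 8.65, and the middle 50% lay between 6.02 and 12.7. The fold was higher in replicate 2 for 1206 regions (63.4%). Across the 1901 regions the Spearman correlation between the replicates' folds was 0.66, and across the 7331 WT-only regions outside deserts it was 0.60. The points share both libraries and a selection on being called in each. The median summit pileup was 14 reads in replicate 1 and 28 in replicate 2, so single folds near the median rest on few reads.

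Each region required overlapping peaks of both WT replicates, which in part forces their summits to lie close together. Median peak widths in the regions were 350 and 558 bp in WT replicates 1 and 2. The median distance between the summits of WT replicates 1 and 2 was 55 bp, and 886 regions (46.6%) had summits within 50 bp of each other. Region width was 582 bp at the median and ran from 181 to 3604 bp, with 315 regions (16.6%) of at least 1000 bp. In 10 regions a WT fold was under 3. The median background at these 10 was 26.7 and 58.1 reads in replicates 1 and 2, against 1.02 and 2.32 over all 1901.

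**Figure D2:**
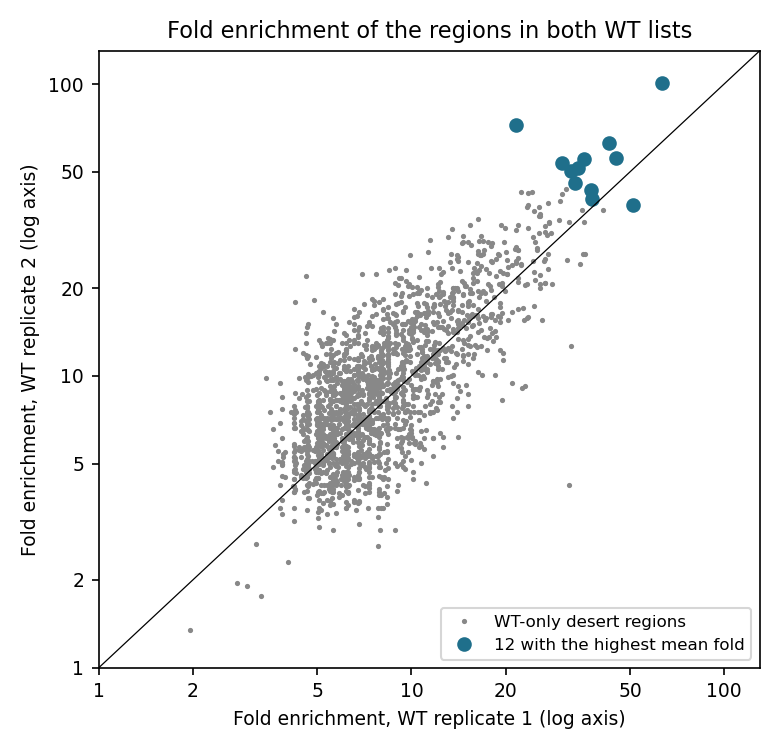
Fold enrichment of the 1901 WT-only desert regions in WT replicate 1 (horizontal, log axis) and WT replicate 2 (vertical, log axis), 1 point per region, with equal folds on the solid line. The large points are the 12 regions with the highest mean fold, which run up to 63.4 and 101.

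Desert regions had higher median folds than the other WT-only regions in both WT libraries. The median folds in replicates 1 and 2 were 7.32 and 8.65 in deserts, 6.93 and 8.10 between genes at up to 100 kb, 6.93 and 7.91 in gene bodies and 6.16 and 6.11 at gene ends. The desert medians exceeded those of all other WT-only regions by 0.52 and 0.83, a mean of 0.68. Regions chosen without WT replicate 1 gave a difference of 0.20, and regions chosen without WT replicate 2 gave 0.42. At the upper end the gap was wider, with 90th percentiles of 15.6 and 19.3 in deserts and 13.1 and 16.4 in the others. A fold of at least 20 in both replicates was found in 80 desert regions (4.21%), in 103 gene-body regions (2.41%), in 55 between genes (2.17%) and in 4 at gene ends (0.772%). Ranked by mean fold, the 100 strongest WT-only regions included 34 in deserts and the 1000 strongest included 288 (28.8%), against 20.6% of all WT-only regions. Median local background was 1.02 and 2.32 reads in deserts and 1.02 and 2.33 reads in the other WT-only regions. No test of these medians was made, and all regions of a library share its depth.

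**Figure D3:**
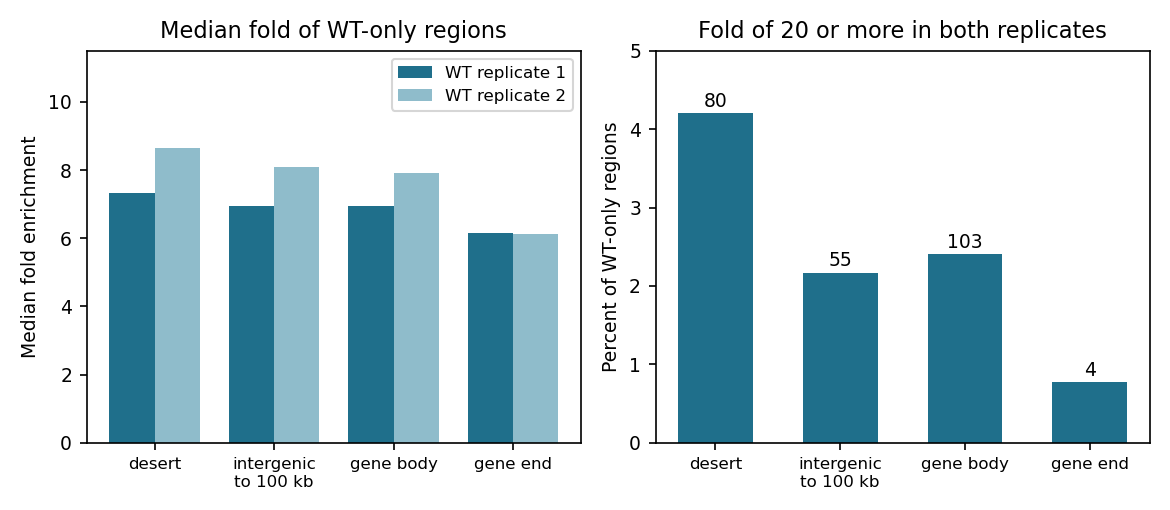
Median fold enrichment in each WT replicate (left) and percent of regions with a fold of at least 20 in both replicates (right, with the number of regions above each bar) for WT-only regions in deserts, between genes at up to 100 kb, in gene bodies and at gene ends. Deserts have the highest medians, 7.32 and 8.65, and the highest share, 4.21%.

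Of the 12 regions with the highest mean fold, 2 lie in the desert between Prkd1, which encodes a serine/threonine kinase of the protein kinase D family, and G2e3, a ubiquitin ligase gene. The region at chr12:51001581-51002898, inside the lncRNA gene Gm40421, had folds of 45.2 and 55.7 in WT replicates 1 and 2. The region at chr12:51117337-51119141 had folds of 37.4 and 43.5. A further 2 of the 12 lie in the desert between Gm42163 and Cenpc1, which encodes a centromere protein. The region at chr5:85239338-85240822 had folds of 42.9 and 62.8, and that at chr5:84848246-84849288 had folds of 35.8 and 55.1. The first of these is 773 kb from Gm42163 and 772 kb from Cenpc1, so it sits at the middle of the desert.

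Another 4 of the 12 lie in the deserts of Nr2f1 and Arrdc3, Flrt2 and Galc, Alcam and Zpld1, and Lrrc4c and Iftap. Nr2f1, an orphan nuclear receptor that patterns cortical areas, lies 382 kb from the region at chr13:78580838-78581957, whose folds were 32.4 and 50.5 and which overlaps the lncRNA gene Gm32067. Flrt2, a membrane protein of cell adhesion and axon guidance, lies 330 kb from the region at chr12:96114194-96115663. That region had folds of 21.6 and 72.3 (46.9 ± 35.8, mean ± SD, n = 2), the widest spread between replicates among the 12. Alcam, an adhesion molecule of the immunoglobulin superfamily, lies 148 kb from a region with folds of 33.2 and 45.8. Lrrc4c, which encodes a netrin-G ligand of synapses, lies 3476 kb from a region with folds of 30.3 and 53.6, and Iftap, the gene at the other end, lies 453 kb away.

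A further 3 of the 12 are the Gm20083 region already described, a region 638 kb from Hs3st4 and a region 452 kb from Pdcd1. Hs3st4 encodes a heparan sulfate sulfotransferase, and its region had folds of 51.2 and 38.5. Pdcd1 encodes the immune receptor PD-1, and its region, the only one in the desert that ends at Fam174a, had folds of 37.8 and 40.5. The Hs3st4 region was the only one of the 12 with a lower fold in replicate 2 than in replicate 1.

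Deserts held fewer regions per Mb than the rest of the genome. They cover 757 Mb, or 28.5% of the 2656 Mb between the first and last protein-coding genes of the chromosomes, and they held 2.51 regions per Mb. The remaining sequence held 3.86 WT-only regions per Mb, a ratio of 0.650. Lengths were not corrected for assembly gaps or for sequence where reads cannot be placed. The desert total includes 46.9 Mb of chromosome Y, which held 0 regions. The median distance from the summit to the nearest protein-coding gene was 227169 bp, 270 regions (14.2%) were over 500 kb away and 50 (2.63%) were over 1 Mb away. The farthest was 2202150 bp from a gene. On the distance limit, the nearest regions kept were 100428 bp from Stmnd1 (folds 6.80 and 16.5 in WT replicates 1 and 2), 100468 bp from Gm38457 (7.24 and 5.34) and 100565 bp from 1600014C23Rik (9.57 and 4.80). The nearest left out were 99776 bp from Itga6 (6.19 and 6.48), 99597 bp from Id4 (14.3 and 13.2) and 99585 bp from Sox6 (6.27 and 5.28).

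The regions were spread unevenly among the deserts. Of 1670 intervals between neighbouring protein-coding genes that contain desert sequence, 659 (39.5%) held a region. A single region was found in 277 of them, 2 to 4 in 269, 5 to 9 in 88 and 10 or more in 25. Those 25 deserts held 348 regions (18.3%) in 31.6 Mb, which is 4.17% of desert sequence. Some long deserts were empty, and 66 of the 214 deserts with over 1 Mb of desert sequence held none. The longest without a region was the 3395 kb between Stim2, an endoplasmic reticulum calcium sensor, and Pcdh7, a protocadherin. By chromosome, density was highest on chromosome 13, with 164 regions at 4.89 per Mb, and on chromosome 9, with 4.07 per Mb. It was lowest on chromosome X, with 25 regions at 0.450 per Mb, and on chromosome Y, with 0. The low counts were not limited to deserts. At any distance from a gene, X held 134 WT-only regions and Y held 0, against at least 247 on each autosome.

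Among the genes that bound the 12 deserts with the most regions are Pou3f3, Pou3f2, Id4, Sox2, Mef2c and Mycn, which encode transcription factors or, for Id4, an inhibitor of them. These 12 were ranked on regions called in both WT lists and in neither cKO list. High WT and low cKO counts in them, given below, therefore follow in part from that choice. The WT lists are also longer, so the counts are descriptions and were not tested. The desert between Zfp608 and Gramd3 held the most, 25 regions in 1195 kb. In that desert WT replicates 1 and 2 had 31 and 47 regions of their own and cKO replicates 1 and 2 had 1 and 0. Between Csnk1g3 and Zfp608, on the other side of the zinc-finger gene Zfp608, there were 16 regions, and the 4 libraries had 21, 32, 0 and 0. Both flanks of Zfp608 thus held 16 or more.

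Before Pou3f3, which encodes a POU-domain factor of cortical progenitors and upper-layer neurons, 24 regions lay in 1639 kb of desert. The libraries had 34, 51, 3 and 2 regions there in the order WT 1, WT 2, cKO 1, cKO 2. The strongest was the Gm29260 region printed above, 953 kb from Pou3f3. Its relative Pou3f2 bounds a desert of 1808 kb with 13 regions, where the libraries had 17, 24, 0 and 0. The strongest region there, at chr4:23173077-23174227, had folds of 19.4 and 20.8 and lies 685 kb from Pou3f2.

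Id4, a helix-loop-helix protein that holds back the differentiation of neural progenitors, bounds a desert with 20 regions in 813 kb. The libraries had 25, 32, 2 and 3 regions in it, and its strongest region, at chr13:48012992-48014156, had folds of 22.4 and 24.0. The desert between Sox2, a factor that maintains neural stem cells, and Atp11b held 15 regions, and with the desert on its other side Sox2 was bordered by 25. The strongest, at chr3:35340177-35341904, lies 689 kb from Sox2 and had folds of 26.7 and 25.1. Library counts in the Sox2 to Atp11b desert were 18, 25, 2 and 0.

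Mef2c, a MADS-box factor of neurons and muscle, bounds a short desert of 355 kb with 14 regions, or 39.4 per Mb. The desert between Cyria and Mycn, a MYC-family factor of progenitor growth, was as densely occupied, with 14 regions in 355 kb. In these deserts the libraries had 18, 22, 1 and 1 and 18, 20, 1 and 1 regions. Among deserts of at least 500 kb the densest was that between Mn1, a transcriptional coregulator, and the lens crystallin gene Cryba4, with 21 regions at 35.6 per Mb. Its strongest region, at chr5:112110178-112111095, had folds of 31.8 and 33.6, and the libraries had 23, 44, 4 and 2 regions there. Next in density were Ubash3b to Gm40514 at 29.4 per Mb, Rnf144b to Id4 at 24.6, Csnk1g3 to Zfp608 at 21.8 and Zfp608 to Gramd3 at 20.9.

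The other deserts among the 12 were Ubash3b to Gm40514 with 16 regions, Slc4a3 to Epha4 with 15 and Usp25 to Cxadr with 14. The first holds the host gene of miR-100, let-7a-2 and miR-125b-1. Epha4 is an ephrin receptor of axon guidance, and the strongest region in its desert, at chr1:76430045-76430887, had folds of 26.7 and 20.8 and lies 937 kb from it. In the Slc4a3 to Epha4 desert the WT libraries had 19 and 30 regions and the cKO libraries 0 and 0. Over the 12 deserts, each WT library had at least 17 regions in each and each cKO library at most 4. The ranking on WT-only regions favours such a contrast, so it carries no test.

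**Figure D4:**
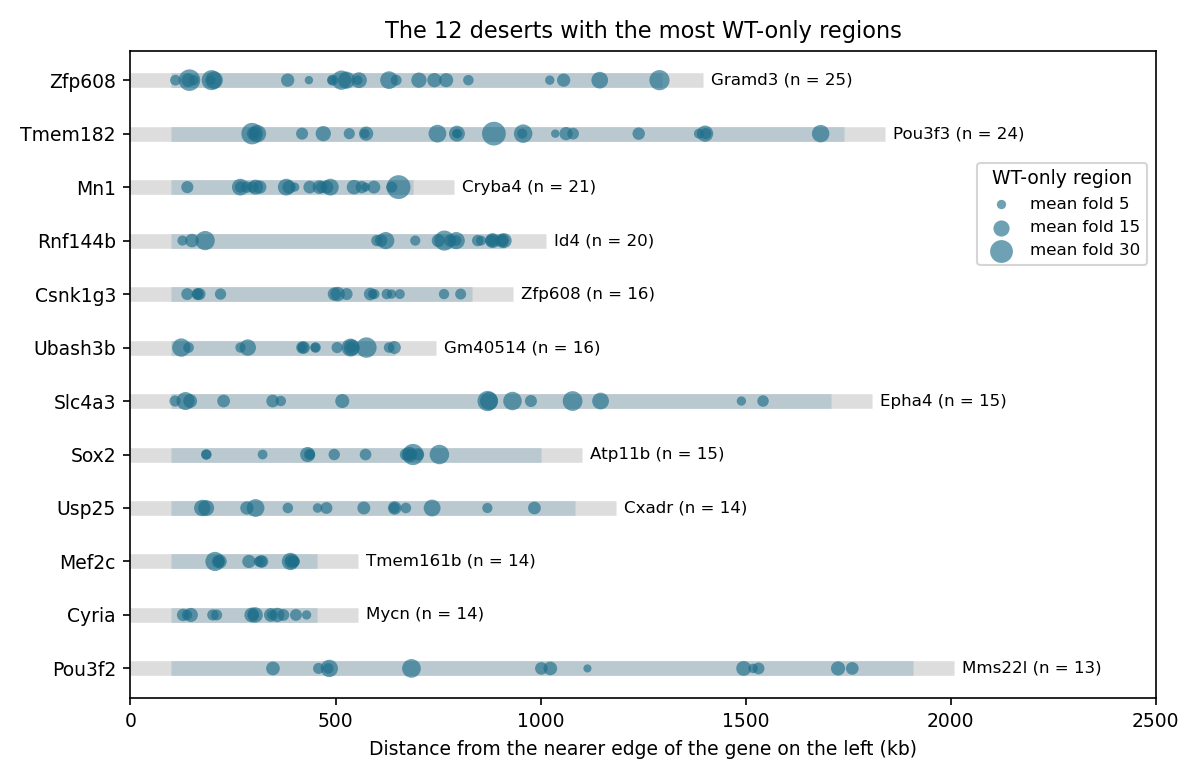
Positions of the WT-only regions in the 12 deserts that hold the most, as distance in kb from the edge of the gene named on the left to the gene named on the right, with 1 circle per region sized by its mean fold in the WT replicates. Grey ends are the 100 kb next to each gene, where no region was counted, and the numbers of regions run from 25 down to 13.

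The spacing of the regions is given as a description and was not tested. No matching values were computed for other WT-only regions or for regions placed at random, so no clustering is claimed. Only overlapping peaks were merged, so close neighbours may be parts of one enriched stretch and need not be separate binding sites. Of the 1898 regions that lie between protein-coding genes, 1621 (85.4%) shared a desert with at least 1 other region. Their median distance to the nearest other region in the same desert was 38014 bp, and 452 of the 1898 (23.8%) had one within 10 kb. Runs in which each region followed the last within 10 kb and which held 3 or more numbered 42. The longest held 6 regions. One of these spans 11.2 kb between Mef2c and Tmem161b, at chr13:84056484-84067643, and the other spans 10.5 kb between Tmem161b and Ccnh, at chr13:84748476-84758945. Runs of 5 lay in the Sox2 to Atp11b desert and between Tle3, a Groucho-family corepressor, and Rplp1.

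Non-coding genes covered 11.49% of desert sequence, and 429 regions (22.6%, Wilson 95% interval 20.7 to 24.5) had their summit inside one. LncRNA genes held 424 of these. In all 317 non-coding genes held a region, 244 of them a single one. Gm34196, between Tmem161b and Ccnh, held the most with 9, the strongest with folds of 14.6 and 11.7 in WT replicates 1 and 2. A330033J07Rik, in the desert before Id4, held 8, with folds of 10.1 and 15.6 at the strongest. In the desert before Sox4, a factor of newborn neurons, 2610307P16Rik held 7, with folds of 11.48 and 29.2 at the strongest. Mir100hg, the host gene of Mir125b-1, held 7, with folds of 15.03 and 16.2 at the strongest.

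Gm29260, Gm31816 and A930011G23Rik held 6 regions each. The strongest region in Gm31816, next to the adhesion gene Cadm1, had folds of 25.7 and 35.8. In A930011G23Rik the strongest had folds of 20.4 and 15.6. Gm35835, Gm30515 and Gm27243 held 5 each. Most regions were in no annotated gene of any kind, and 278 (14.6%) were over 100 kb from every RefSeq gene, coding or not. Promoter windows of 44 genes overlapped 42 regions (2.21%).

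Many genes of cortical patterning and neuronal differentiation bounded a desert that held a region. Over all 21774 protein-coding genes, 2778 bounded a desert and 1199 of these (43.2%) had a region in it, at 2.51 regions per Mb. Of 30 genes of radial glia and cortical patterning, 20 bounded a desert and 17 of those had a region, at 7.65 regions per Mb. Of 38 genes of progenitor and neuronal differentiation, 24 bounded a desert and 19 had a region, at 6.67 per Mb. The deserts of these lists were long, with medians of 858 kb and 632 kb against 249 kb over all genes. The median number of regions per bounding gene was 3.5 and 4 in the lists and 0 over all genes. No test was made, because the lists were chosen with earlier results of these data known.

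In the list of radial glia and patterning, Sox2 was bordered by 25 regions, Id4 by 20 and Sox9, an HMG-box factor of neural stem cells and glia, by 15. The strongest region by Sox9, at chr11:112197461-112198400, had folds of 16.5 and 29.0. In the list of progenitor and neuronal differentiation, Pou3f3 was bordered by 24, Mef2c by 16 and Pou3f2 by 13.

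Genes of migration, guidance and adhesion were the list with the most desert neighbours, 44 of 50, and 30 had a region. Their density was 1.49 per Mb, below that of all deserts, with a median desert length of 1913 kb. Epha4 was bordered by 17 regions, the cadherin gene Cdh8 by 13 in 5951 kb and Flrt2 by 11 in 4814 kb. The strongest region by Cdh8 had folds of 22.0 and 21.0. Of 33 signalling genes, 21 bounded a desert and 13 had a region, at 2.77 per Mb. The Wnt receptor gene Fzd8 was bordered by 6, the ligand genes Tgfb2 and Bmp4 by 5 and 4. A region 1168 kb from Fzd8 had folds of 35.5 and 33.7, while the strongest by Bmp4 had folds of 13.5 and 7.20.

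Genes that mark other cells or tissues were counted in the same way. Of 21 genes of interneurons and the ventral telencephalon, 12 bounded a desert and 8 had a region, at 5.75 per Mb, with Isl1 bordered by 7, Sp8 by 5 and Ebf1 by 3. Of 19 genes of heart, limb and muscle development, 10 bounded a desert and 6 had a region, at 7.43 per Mb, which is close to the density of the radial glia list. Irx5 and Irx3, homeobox genes that share a desert, were bordered by 10 and 9 regions and Shox2 by 5. The region 221 kb from Irx5 and 335 kb from Irx3, at chr8:92136790-92137371, had folds of 13.6 and 19.96.

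In the remaining lists the share of genes that bounded a desert ran from 18.2% (microglia) to 45.5% (choroid plexus and cortical hem), against 12.8% of all protein-coding genes. In the astrocyte and oligodendrocyte lineage 3 of 15 genes bounded a desert. Of these, 2 had a region, Pdgfra and Slc1a3 with 1 each, at 7.36 per Mb. Of 11 genes of choroid plexus and cortical hem, 5 bounded a desert and only Msx2 had regions, 3 of them, at 2.82 per Mb. Of 16 endothelial and mural genes, 4 bounded a desert, and Cdh5 and Tbx3 had 3 regions each, at 2.63 per Mb. Of 11 microglial genes, 2 bounded a desert and both had a region, at 4.15 per Mb. Sall1, which is also a factor of neural progenitors and stands in the radial glia list too, had 4 and Irf8 had 1. With so few bounding genes per list, these densities rest on few deserts. Of 11 genes of brown fat, a tissue in which PRDM16 is a known regulator, 4 bounded a desert and only Ppargc1a had regions, 2 of them with folds of up to 5.23 and 10.8. Position next to a region says nothing of whether a gene is expressed, and expression was not measured in these lists.

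**Figure D5:**
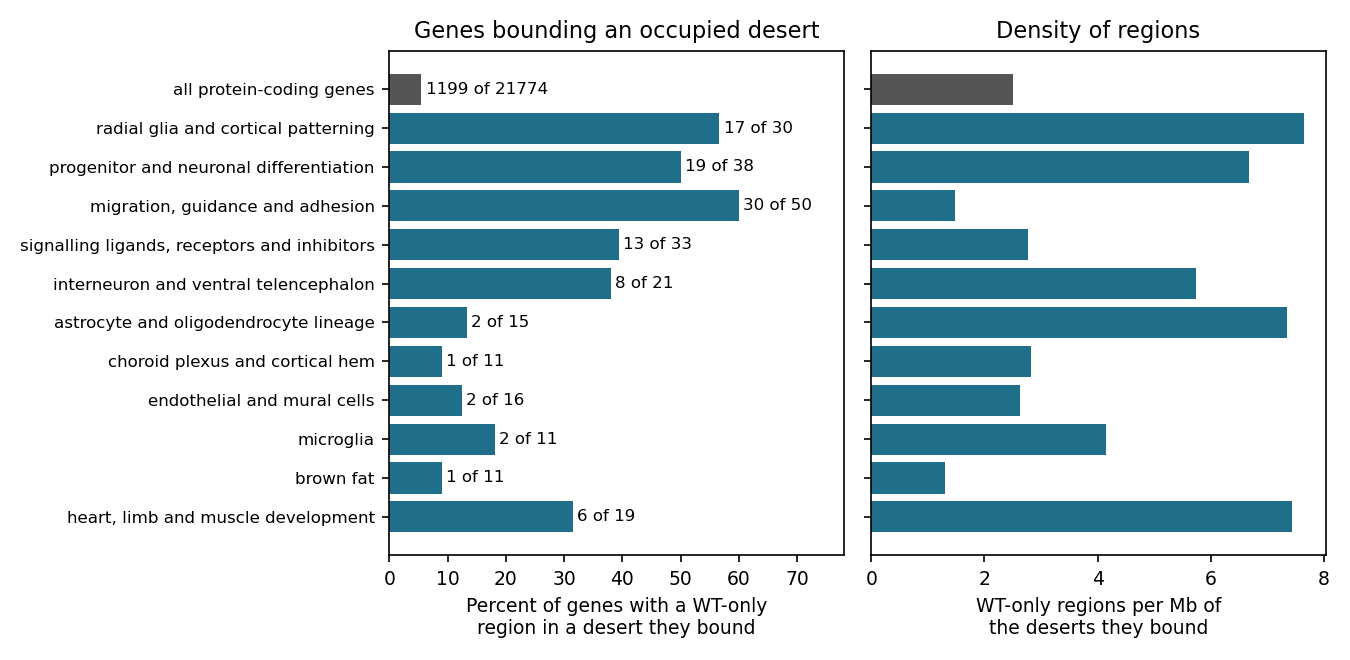
Percent of the genes of each list that have a WT-only desert region in a desert they bound (left, with counts) and number of such regions per Mb of those deserts (right), for 11 gene lists and all protein-coding genes (grey). Density runs from 1.31 per Mb for brown fat to 7.65 for radial glia and cortical patterning, against 2.51 over all genes.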

How the data were processed

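Peak lists of 2 WT and 2 cKO PRDM16 ChIP libraries entered; the 4 input libraries were not analysed here. Per the labels' protocols, chromatin was crosslinked with paraformaldehyde and EGS and sheared by sonication. Bowtie2 2.2.8, MACS2 2.1.1, cutadapt, FastQC and mm10 appear in the submitters' processing notes, without settings. The authors deposited 1 narrowPeak list per library, so replicates were not pooled before calling. Each deposited peak has a fold over background (a ratio), a −log10 p-value, a −log10 q-value and an integer score. The largest q-values kept by the authors were 0.0491, 0.0440, 0.0465 and 0.0454 in WT replicates 1 and 2 and cKO replicates 1 and 2. The pairing of inputs with ChIP libraries was not given in the sources used here.

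Only the autosomes and X and Y were retained, which left out 12, 14, 37 and 19 contig lines, and overlapping peaks were merged. Coordinates count from 1. Summit pileups were solved from the deposited fold and −log10 p-value under a Poisson model, and a whole-number pileup was found for 100% of summits to within 0.001 of the deposited −log10 p. Genes came from the RefSeq table of GRCm38.p6, with 21774 protein-coding genes after 113 on other scaffolds were left out. A desert is the part of an interval between neighbouring protein-coding genes that is over 100 kb from both. Library counts and shares were compared with an exact permutation test. Shares carry Wilson 95% intervals. Scripts used Python 3.11.15, numpy 2.4.6, pandas 2.3.3 and scipy 1.17.1 and were tested on simulated data.

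The regions and the 11 gene lists were chosen with earlier results of these data known. Genes named were those bounding the deserts of the 12 regions with the highest mean fold, the 12 deserts with the most regions and the 5 densest deserts of at least 500 kb, up to 3 genes per list with the most regions, and the non-coding genes holding the most, where all 3 with 5 regions are named. Of the 12 regions, 1 is not reported here. The empty desert, the miRNAs, the runs and the promoter windows were chosen after their values were seen. Motifs had been planned for windows around all summits; a genome sequence was not used here, so promoter windows took their place. Alternatives varied the gene distance, q threshold, overlap, summit, gene set and list length, and left out each library.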

Additional observations from a re-analysis of the deposited data

How the results depend on the processing

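The number of WT-only desert regions, 1901, became 1096 over 200 kb from a gene and 278 over 100 kb from any RefSeq gene. With lists of equal length it was 473. Leaving out 1 library gave 1921 to 4610, the highest without WT replicate 1. Where a WT library was left out, here and below, a region needed a call in the remaining WT list alone. The desert share of WT-only regions, 20.6%, became 28.6% over 50 kb, 11.9% over 200 kb, 3.01% from any RefSeq gene and 24.9% with equal lists, and 18.5% to 20.5% with 1 library left out. Occupied deserts, 659, became 383 over 200 kb, 199 from any RefSeq gene and 287 with equal lists, and 661 to 909 with 1 library left out. The excess of the desert median fold over that of other WT-only regions, 0.68 as the mean of the replicates, became 1.02 with equal lists and 0.20 to 0.68 with 1 library left out, the lowest without WT replicate 1.

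The ratio of desert regions per library, 16.9, was 11.9 to 21.9 with 1 library left out, and it was 3.78 with equal lists. The difference in desert share, 12.5 percentage points, was 12.1 to 12.9 with 1 library left out, 7.25 over 200 kb and 1.88 from any RefSeq gene. It was 17.3 with equal lists and 16.1 over 50 kb. With the replicate number as a block the ratio was 16.3 and the difference 12.5 points, from ratios of 10.5 and 25.2 in replicates 1 and 2, and the exact permutation p was 0.5, the smallest it can give; no label says that the numbers pair the genotypes. A q threshold of 0.01 gave 1897 regions. Keeping genes of other scaffolds, chosen after seeing the data, gave 1901 regions in 660 deserts. Motif alternatives were not run, and the share inside non-coding genes has no value when any RefSeq gene bounds a desert. Single folds rest on few reads, with a median pileup of 14 in WT replicate 1.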

Other observations

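WT replicate 1 had 407 desert regions that WT replicate 2 did not call, and 28 of them had a fold of at least 20, among 132 desert regions of that list at this fold. WT replicate 2 had 2703 desert regions that replicate 1 did not call, and 0 of them reached a fold of 20, among 185 at this fold. The strongest peak in a desert was thus outside the 1901 regions. It lies at chr17:4626048-4626717 between Nox3, an NADPH oxidase gene, and Arid1b, a chromatin remodelling subunit gene, with a fold of 228 and a pileup of 404 reads in WT replicate 1 and no call in replicate 2. The next were a region between Ednrb and Pou4f1 with a fold of 83.3 and a region between Bcl11a and Fancl with a fold of 66.7. These are single-library values, chosen after they were seen.

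In the cKO lists 110 desert regions were shared by both replicates, and 39 of these were in neither WT list. The strongest lay between Foxo1 and Cog6, with folds of 17.2 and 12.3 in cKO replicates 1 and 2, and between Pcdh20 and Pcdh9, with folds of 15.3 and 13.9, and both were also in a WT list. Between Fermt1 and Bmp2 a region with folds of 11.53 and 11.7 was in neither WT list. Desert regions of cKO replicates 1 and 2 had median folds of 5.08 and 4.96 and median widths of 202 and 205 bp, against 296 and 328 bp in WT replicates 1 and 2.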
